A study of Homo sapiens with 4 samples.

Results

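The longest protein-coding genes of the human genome were followed here in nascent RNA from cells whose only stable RNA polymerase II was meant to carry either a wild-type or a Thr4-mutant tail. The set held every protein-coding gene on chromosomes 1 to 22 that spans 500 kb or more, with the protocadherin genes (symbols starting with PCDH) left out, and came to 304 of the 60708 genes in the count table, or 304 of the 18914 protein-coding genes on the same chromosomes. The rule uses gene type, span and position, and no count. Their median span was 722 kb, 64 of them were longer than 1000 kb, and the longest was RBFOX1 at 2474 kb. Exons made up a median of 1.39% of the span. Chromosome 3 held 36 of the genes, chromosome 7 held 27 and chromosome 1 held 25, and none lay on chromosome 19.

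All 4 libraries came from HEK293, a human embryonic kidney cell line, with an RPB1 degron. RPB1 is the largest subunit of RNA polymerase II, and the degron is a tag through which auxin triggers destruction of the tagged protein. The cells were transiently transfected with an RPB1 plasmid whose C-terminal domain (CTD) had 52 repeats that were either wild type (52X WT, 2 libraries) or T4A in each repeat (52X T4A, 2 libraries), meaning that alanine replaced threonine at the fourth place. Auxin was added 48 h after transfection and stayed for another 48 h in both groups, so that the WT libraries carried the degron and the auxin as well, and newly made RNA was labeled with 4-thiouridine for 20 min (TT-seq). Transfection was transient, so cells without plasmid may be among those harvested. The labels do not say whether replicates were separate cultures, so p-values here measure the spread between these libraries, which may be technical.

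RNA polymerase II must cross the whole of a gene to make a complete transcript, and for genes of this size that journey takes many hours, nearly all of it through introns. A short label therefore marks RNA from polymerases scattered along the gene body. Reads per kilobase follow how much RNA was made there during the label, which is not a count of polymerases. Many of the longest human genes encode cell adhesion molecules, guidance receptors and synaptic proteins, and these are known mainly from neurons. Several others, such as FHIT and WWOX, lie over common fragile sites, places that break when DNA replication is slowed.

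The promoters of 6 of the genes are printed first, because they stand at the ends of the results below. FAF1 and PRKCA had the highest read density of the set, LRRC7 and ERBB4 had the largest decrease in T4A among the genes called transcribed, and UNC13C and OPCML were among the genes with the lowest density. Each is the 250 bases before the RefSeq start of the gene on GRCh38.p14, read 5′ to 3′ on the strand of the gene, with each CG dinucleotide in capitals. They lie at chr1:50960268-50960517 (minus strand) for FAF1, chr17:66302363-66302612 (plus) for PRKCA, chr1:69567672-69567921 (plus) for LRRC7, chr2:212538803-212539052 (minus) for ERBB4, chr15:53978191-53978440 (plus) for UNC13C and chr11:133532502-133532751 (minus) for OPCML.
FAF1: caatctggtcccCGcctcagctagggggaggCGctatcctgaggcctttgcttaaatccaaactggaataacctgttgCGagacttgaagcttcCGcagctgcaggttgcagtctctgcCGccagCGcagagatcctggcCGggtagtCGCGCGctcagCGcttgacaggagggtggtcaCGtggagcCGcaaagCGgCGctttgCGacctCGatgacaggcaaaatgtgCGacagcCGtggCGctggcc
PRKCA: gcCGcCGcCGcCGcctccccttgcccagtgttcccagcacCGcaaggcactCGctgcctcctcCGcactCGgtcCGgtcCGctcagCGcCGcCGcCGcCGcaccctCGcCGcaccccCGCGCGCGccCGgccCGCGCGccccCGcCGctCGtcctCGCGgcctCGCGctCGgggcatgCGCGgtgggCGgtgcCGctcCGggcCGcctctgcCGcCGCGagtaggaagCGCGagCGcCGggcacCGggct
LRRC7: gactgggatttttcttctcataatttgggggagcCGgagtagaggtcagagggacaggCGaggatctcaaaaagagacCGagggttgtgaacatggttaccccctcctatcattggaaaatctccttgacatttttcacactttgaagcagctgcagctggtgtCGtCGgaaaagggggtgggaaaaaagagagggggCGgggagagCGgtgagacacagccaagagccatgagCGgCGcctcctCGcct
ERBB4: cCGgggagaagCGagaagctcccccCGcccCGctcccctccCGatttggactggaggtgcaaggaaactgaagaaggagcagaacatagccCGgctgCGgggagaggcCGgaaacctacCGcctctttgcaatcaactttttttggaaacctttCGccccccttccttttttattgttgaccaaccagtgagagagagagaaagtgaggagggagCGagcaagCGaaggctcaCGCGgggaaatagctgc
UNC13C: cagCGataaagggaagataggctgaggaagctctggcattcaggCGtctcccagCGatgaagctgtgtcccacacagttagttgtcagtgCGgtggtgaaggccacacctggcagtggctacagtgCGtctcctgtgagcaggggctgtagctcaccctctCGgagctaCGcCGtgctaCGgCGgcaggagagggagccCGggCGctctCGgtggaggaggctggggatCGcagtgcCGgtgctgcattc
OPCML: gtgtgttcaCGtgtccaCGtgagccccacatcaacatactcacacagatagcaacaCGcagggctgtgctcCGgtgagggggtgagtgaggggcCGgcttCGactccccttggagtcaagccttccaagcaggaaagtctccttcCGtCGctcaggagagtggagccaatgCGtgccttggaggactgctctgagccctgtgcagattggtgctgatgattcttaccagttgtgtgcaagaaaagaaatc

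The printed PRKCA stretch held 47 CG dinucleotides, that of FAF1 20, that of UNC13C 15, that of ERBB4 14, that of LRRC7 10 and that of OPCML 9. Over windows of 300 bases (250 before and 50 after the start), 173 of the 304 genes had a RefSeq start within 1000 bases of the listed one. The median number of CG dinucleotides was 31 in the 87 windows of transcribed genes, 24.5 in the 34 of weakly transcribed genes and 22 in the 52 of silent genes, classes that are defined below. It was 27 over all 173 windows and 23 over 12160 protein-coding genes of any span. Windows with 15 or more CG made up 79.3% of the transcribed, 82.4% of the weakly transcribed and 59.6% of the silent genes, against 69.6% of the 12160. The letters TATAAA, searched on both strands, stood in 5.75%, 5.88% and 5.77% of the 3 classes and in 9.39% of the 12160. A match or its absence is a description of these letters only. Windows with 15 or more CG were thus found among silent long genes too. That of UNC13C held 19, which is below the silent median. The RefSeq start of UNC13C lay 240 bases inside the listed one, so most of its printed stretch is within the listed span.

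The libraries held between 33188536 and 45605027 counts. POLR2A, the gene of RPB1, was read at between 246 and 318 RPKM in the 4 libraries. Endogenous and plasmid transcripts cannot be told apart in this count, and the degron acts on the protein, so POLR2A does not check the labels. Most genes that mark HEK293 cells were read (KRT18 at a mean of 5.29 RPKM, VIM at 4.79, LIN28B at 1.30), with PAX2 low at 0.0256 RPKM. NEFM was the lowest of them at 0.0145 RPKM, with 0 and 6 counts in WT replicates 1 and 2 and 4 and 2 in T4A replicates 1 and 2. Genes that mark other cell types ran from 0.00311 RPKM for PTPRC (leukocytes) through 0.0118 for CDH5 (endothelium), 0.0383 for ALB (liver), 0.0397 for GFAP (glia) and 0.131 for COL1A1 (fibroblasts) to 0.140 for HBA1 (red cells, 2 to 7 counts in each library), and the neuronal genes SNAP25 and SYP were at 0.0765 and 0.234 RPKM. Most low counts were even, 78.8% to 84.0% of counts from 1 to 100 in each library, as when both mates of a pair are counted separately, so the number of independent fragments is lower than the counts and intervals from counts would be too narrow.

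Read density was expressed as RPKM, here the counts per kilobase of span divided by the total count of the library, in the usual RPKM scale. Bases shared with another gene of the same strand were left out of the span, since reads there were not counted. In the median gene 99.9% of the span remained. In 8 genes under 50% remained, among them FOXP1 (0.718%), RBMS3 (16.9%), KCNAB1 (21.1%) and KCNMB2 (25.8%), whose values thus rest on a small piece of the gene. ENSG00000285713 had no countable base and no count in any library and is left out of every class. The other 303 genes all had counts in all 4 libraries.

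A mean of 0.1 RPKM or more over the 4 libraries was taken as transcribed, and the genes under it were divided at 0.01 RPKM after their values were seen. By these limits 138 genes were transcribed, 68 were weakly transcribed and 97 were silent. Above 200 kb the share of transcribed genes was lower with each class of span, while below it the share ran from 57.2% under 25 kb to 73.9% from 100 to 200 kb. Among protein-coding genes of 200 to 500 kb, 68.7% of 1110 were transcribed and 13.7% were silent, among those of 500 to 1000 kb 49.8% of 239 were transcribed and 28.9% silent, and among those above 1000 kb 29.7% of 64 were transcribed and 43.8% silent. A density of 0.1 RPKM or more was reached in each of the 4 libraries by 130 genes and in at least 1 library by 143. The limit of 0.1 RPKM was reached by 138 genes in WT replicate 1, 139 in WT replicate 2, 138 in T4A replicate 1 and 133 in T4A replicate 2.

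**Figure D1:**
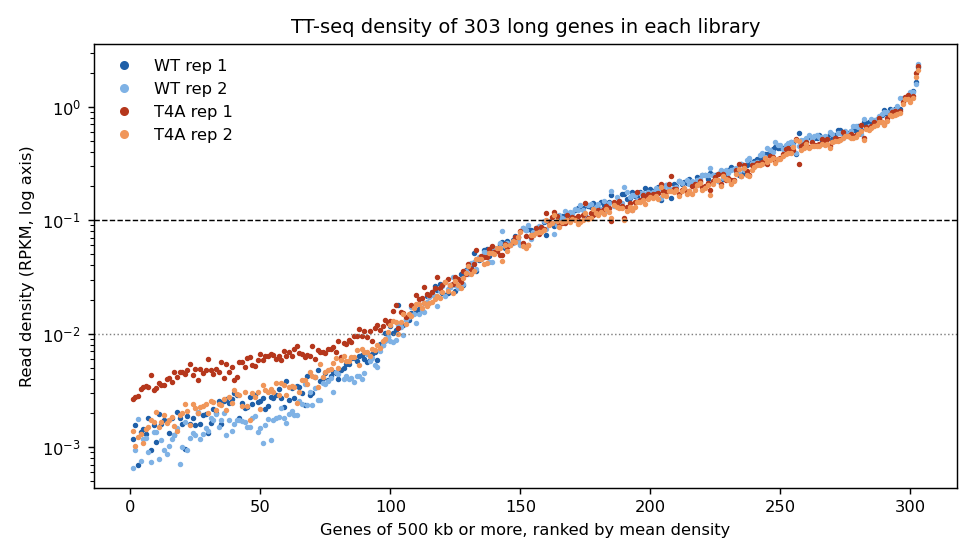
Read density (RPKM, log axis) of the 303 genes with countable bases in each library, with genes ranked by mean density on the horizontal axis. The dashed line marks 0.1 and the dotted line 0.01 RPKM. To the left of the dotted line T4A replicate 1 stands above the other 3 libraries, and to the right of the dashed line the T4A points lie mostly under the WT points.

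The transcribed genes spanned a 22.3-fold range of mean density, with a median of 0.277 RPKM. FAF1, which encodes a ubiquitin-binding adaptor protein, stood at the top with 2.25 and 2.38 RPKM in WT replicates 1 and 2 and 2.29 and 2.10 RPKM in T4A replicates 1 and 2. PRKCA, the gene of protein kinase C alpha, followed with 1.65 and 1.59 RPKM in WT and 1.99 and 1.84 RPKM in T4A. FAF1 values of both groups overlapped, while both T4A values of PRKCA lay above both WT values. PARD3, a scaffold of cell polarity, had 1.38 and 1.34 RPKM in WT and 1.25 and 1.19 RPKM in T4A. ADK, which encodes adenosine kinase, had 1.25 and 1.35 RPKM in WT and 1.19 and 1.11 RPKM in T4A. Both genes were lower in both T4A libraries than in both WT libraries. Next came the kinase gene MAST4, the transcription factor gene CREB5, the scaffold gene ERC1, FOXP1, the gephyrin gene GPHN and PSD3, with means between 0.912 and 1.20 RPKM. MAST4 (1.19, 1.18, 1.26 and 1.16 RPKM, in the order WT replicates 1 and 2, T4A replicates 1 and 2) and CREB5 (1.20, 1.18, 1.22 and 1.17 RPKM) overlapped between the groups.

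At the limit of 0.1 RPKM the genes formed no gap. MACROD2 was the lowest transcribed gene (0.110, 0.104, 0.0943 and 0.0957 RPKM in the same order), and just under the limit stood SEMA3A (0.0997, 0.112, 0.0937 and 0.0878 RPKM), a secreted axon guidance cue, and KALRN (0.0961, 0.0906, 0.108 and 0.0983 RPKM), a gene of a guanine nucleotide exchange factor. CLSTN2, DLC1 and SOX5 were the next below. CLSTN2, a synaptic membrane protein gene, had both T4A values (0.117 and 0.110 RPKM) above both WT values (0.0888 and 0.0757 RPKM), as had KALRN by a smaller margin. DLC1 and SOX5 overlapped between the groups.

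The silent genes were not at 0, and their level differed by library. Their median density was 0.00259 and 0.00179 RPKM in WT replicates 1 and 2 and 0.00595 and 0.00295 RPKM in T4A replicates 1 and 2. T4A replicate 1 was the highest library in 97 of the 97 genes, and WT replicate 2 the lowest in 82. T4A replicate 2 lay above both WT libraries in 71. CSMD1, which encodes a large complement-control membrane protein and had the lowest mean of all, had 96, 62, 187 and 95 counts over 2060 kb. OPCML, a gene of an opioid-binding adhesion molecule, had 59, 38, 122 and 48 counts, and UNC13C, a gene of synaptic vesicle priming, had 40, 28, 61 and 22 counts. UNC5D, a netrin receptor gene, had 32, 30, 64 and 20 counts. The promoters of OPCML and UNC13C are those printed above. Each of these genes was highest in T4A replicate 1, and in UNC13C and UNC5D T4A replicate 2 was below the WT libraries in counts and within or below their range in RPKM. KCNMB2, a potassium channel subunit gene with few countable bases, had 4, 12, 14 and 6 counts and did not pass the filter of the test.

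**Figure D2:**
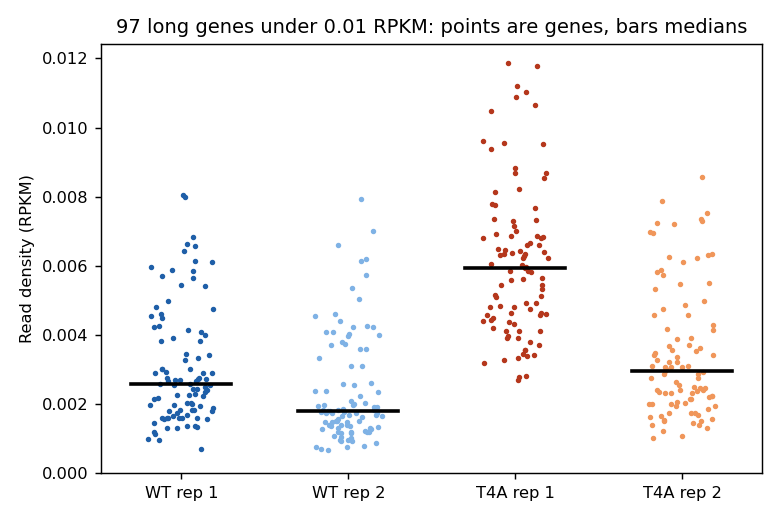
Read density (RPKM) of the 97 genes under 0.01 RPKM in each library, one point for each gene and a bar at the median. T4A replicate 1 stands apart at a median of 0.00595 RPKM, and T4A replicate 2 at 0.00295 RPKM is near WT replicate 1 at 0.00259 RPKM.

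Olfactory receptor genes, which embryonic kidney cells should not use, had a pooled density in the same order of libraries. Counts on 398 of them came to 0.00650 and 0.00564 RPKM in WT replicates 1 and 2 and to 0.01001 and 0.00722 RPKM in T4A replicates 1 and 2. The 12 of them that passed the filter of the test had another order, with median log2 differences from the WT mean of 0.04 in T4A replicate 1 and 0.45 in T4A replicate 2. Over the other 386 the pooled density was 0.00404 and 0.00322 RPKM in WT and 0.00728 and 0.00459 RPKM in T4A. Pooled over the 97 silent genes, density was 0.00306 and 0.00235 RPKM in WT and 0.00604 and 0.00341 RPKM in T4A, so that T4A replicate 1 was at 2.23 times and T4A replicate 2 at 1.26 times the WT mean. In T4A replicate 1 this density was 6.04% of the 0.1 RPKM limit. The part of this background in the values of the weakly transcribed genes was not tested gene by gene.

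Whether the T4A tail changed RNA synthesis on these genes relative to other genes was tested with edgeR on all genes of the table. Counts were scaled by library size and TMM, so a change shared by most genes would not be seen. Of 23321 genes tested, 1 passed an adjusted p of 0.05 (0.00429%), the shorter gene CHST8, and none of the 302 long genes tested did. The smallest adjusted p among them in edgeR's quasi-likelihood test was 0.105. At an unadjusted p under 0.05, 79 of the 302 were lower in T4A, against 8.02% of all genes tested, and 62 were higher, against 7.45%. The calls differed by class. Of the 138 transcribed genes 67 (48.6%) were lower, 2 were higher and 69 did not pass. With the replicate number as a block 37 were lower and 1 higher. With single libraries left out, the median log2 fold change of the transcribed genes relative to all tested genes was -0.297 to -0.185. Of the 68 weakly transcribed genes 12 were lower and 9 higher. Of the 96 silent genes tested none was lower and 51 were higher. Silent protein-coding genes of 200 to 500 kb had 62 higher of 142 tested. Depth differed between these sets: the median count in WT replicate 1 was 8687 in transcribed long genes, 83 in silent ones and 268 in all tested genes. The part of depth in the shares called was not tested.

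With DESeq2 in place of edgeR, 48 long genes passed an adjusted p of 0.05 as lower and 3 as higher, against 5.57% and 1.9% of the genes to which DESeq2 gave an adjusted p. Of the 48, 45 were transcribed genes and 3 weakly transcribed, and the higher ones were 2 transcribed and 1 weakly transcribed. DESeq2 gave an adjusted p to 202 long genes, 137 transcribed, 62 weakly transcribed and only 3 silent, so it could hardly call silent genes. In an edgeR fit with the replicate number as a block, 9 long genes passed as lower (6 transcribed, 3 weakly transcribed), against 1.41% of all genes tested, and 23 passed as higher, all of them silent, against 0.879%. The number of calls thus depended on the tool and the fit.

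**Figure D3:**
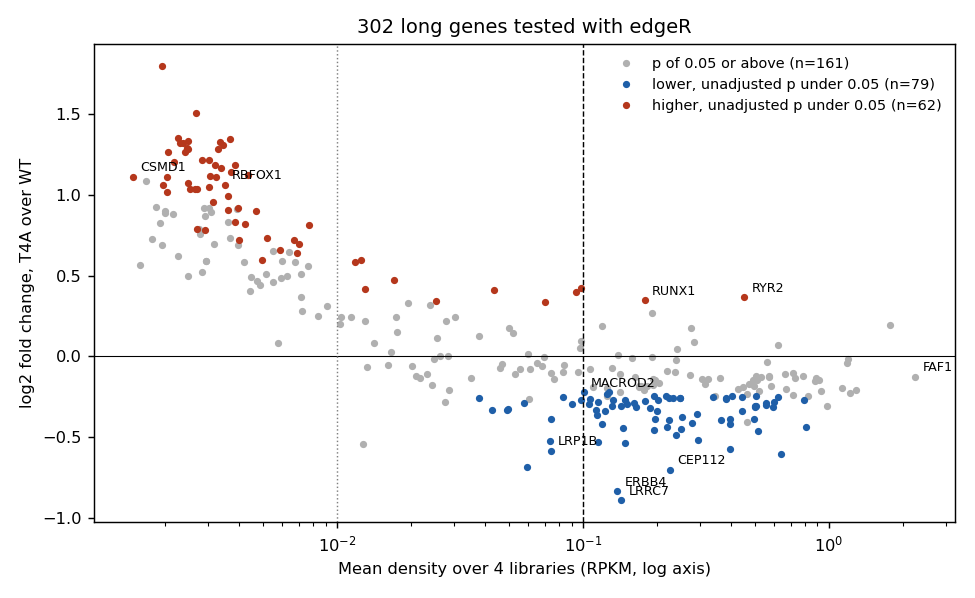
Log2 fold change, T4A over WT, of the 302 long genes tested with edgeR against mean density (RPKM, log axis), with genes at an unadjusted p under 0.05 in blue (79, lower) or red (62, higher). Right of the dashed line (0.1 RPKM) most genes lie below 0, and left of the dotted line (0.01 RPKM) all lie above it.

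Most transcribed genes lay below the median of all tested genes in T4A, although none passed an adjusted p in edgeR. Their median log2 fold change was -0.24 relative to the median of all tested genes, and the middle of the distribution ran from -0.31 to -0.14 (lower and upper quartile), with 128 of 138 genes below the median gene and a range from -0.89 to 0.37. Each T4A library showed it: set against the WT mean, the median log2 difference came to -0.18 for T4A replicate 1 and -0.30 for the other T4A library, while the WT libraries differed from their own mean by -0.04 and 0.04. In 108 of the 138 genes (78.3%) both T4A libraries lay below both WT libraries, against 24.8% of all tested genes, and in 5 both lay above, also against 24.8%. T4A replicate 2 was the lowest library in 112 genes. The 138 genes held 3.91% and 3.94% of the counts in WT replicates 1 and 2 and 3.60% and 3.43% in T4A replicates 1 and 2. That is a difference of -0.408 percentage points, with a two-sided exact permutation p of 0.33, the smallest that 2 against 2 libraries allow.

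LRRC7, which encodes densin, a scaffold of the postsynaptic density, showed the largest decrease. It lies on chr1:69567922-70151945 (plus strand) and had 3865 and 5267 counts in WT and 2070 and 1937 in T4A, or 0.169 and 0.198 RPKM against 0.105 and 0.1002 RPKM. The T4A values were 1.85-fold lower, with a log2 fold change of -0.89 (SE 0.11) and an adjusted p of 0.105 in edgeR. ERBB4, a receptor tyrosine kinase gene for neuregulins on chr2:211375717-212538841 (minus strand), had 0.168 and 0.181 RPKM in WT and 0.0986 and 0.104 RPKM in T4A, 1.78-fold lower with a log2 fold change of -0.83 (SE 0.09) and the same adjusted p of 0.105 in edgeR. In both genes the groups did not overlap.

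CEP112, a gene of a centrosomal protein, had 0.263 and 0.289 RPKM in WT and 0.185 and 0.166 RPKM in T4A, with a log2 fold change of -0.70 (SE 0.11). FOXP2, a transcription factor gene, had 0.742 and 0.778 RPKM in WT and 0.527 and 0.508 RPKM in T4A, with a log2 fold change of -0.60 (SE 0.11). NBEA, the gene of the membrane traffic protein neurobeachin, had 0.444 and 0.490 RPKM in WT and 0.330 and 0.321 RPKM in T4A, with a log2 fold change of -0.57 (SE 0.11). In these 3 genes too the groups did not overlap. All 5 genes passed an adjusted p of 0.05 with DESeq2, and LRRC7, ERBB4 and CEP112 did so in the edgeR fit with the replicate number as a block. The 5 were picked as the largest decreases in these same counts, so these fits are not separate evidence. DESeq2 called 45 of 137 transcribed long genes as lower.

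Only 2 transcribed genes were higher at an unadjusted p under 0.05. RYR2, the gene of a calcium release channel, had 0.381 and 0.395 RPKM in WT and 0.523 and 0.513 RPKM in T4A, a log2 fold change of 0.37 (SE 0.10). RUNX1, a transcription factor gene of blood formation, had 0.151 and 0.158 RPKM in WT and 0.210 and 0.197 RPKM in T4A, a log2 fold change of 0.35 (SE 0.10). Both T4A libraries stood above both WT libraries in each gene, and the adjusted p was 0.224 for RYR2 and 0.229 for RUNX1 in edgeR. Without WT replicate 1 neither passed an unadjusted p of 0.05 (0.102 and 0.0901 in edgeR), and with the replicate block RYR2 did not (0.0594).

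**Figure D4:**
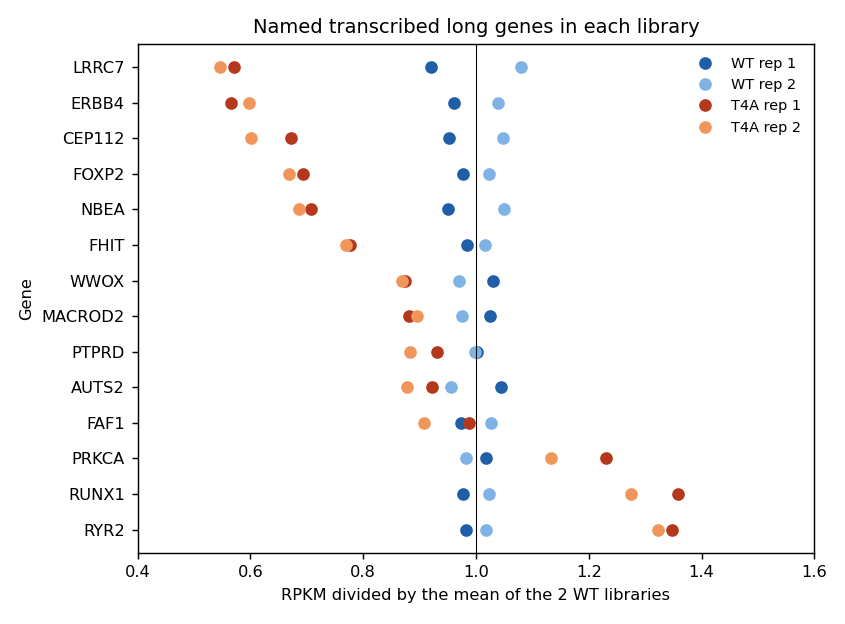
RPKM of 14 named transcribed genes in each library, divided by the mean of the 2 WT libraries. T4A points of LRRC7 and ERBB4 lie furthest to the left, those of RYR2 and RUNX1 furthest to the right, and those of FAF1 overlap or adjoin the WT points.

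Span and the size of the difference went together across all transcribed protein-coding genes, and the long genes stood at its end. The median log2 fold change relative to all tested genes was -0.06 below 25 kb, -0.05 from 25 to 50 kb, -0.08 from 50 to 100 kb, -0.12 from 100 to 200 kb and -0.17 from 200 to 500 kb. It was -0.24 in the 119 genes from 500 to 1000 kb and -0.24 in the 19 genes above 1000 kb. Genes lower at an unadjusted p under 0.05 made up 5.66% of those below 25 kb, 16.2% from 50 to 100 kb, 34.3% from 200 to 500 kb, 46.2% from 500 to 1000 kb and 63.2% above 1000 kb. Depth differed between these classes too, with median counts in WT replicate 1 of 514, 2613.5, 6562, 9393 and 8489 in the same order. The part of depth in the shares was not tested. Among genes above 500 kb the change with span was slight (Spearman correlation -0.14 over 138 genes that share the same 4 libraries).

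The 2 T4A libraries did not behave alike in short genes. T4A replicate 1 had medians of -0.13 below 25 kb, -0.04 from 25 to 50 kb, -0.12 from 200 to 500 kb, -0.17 from 500 to 1000 kb and -0.21 above 1000 kb. T4A replicate 2 went from 0.04 below 25 kb to -0.24 from 200 to 500 kb, -0.30 from 500 to 1000 kb and -0.29 above 1000 kb. From 25 kb up both T4A libraries went down with span, apart from the last step of T4A replicate 2, while the WT libraries stayed within 0.04 of their mean.

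**Figure D5:**
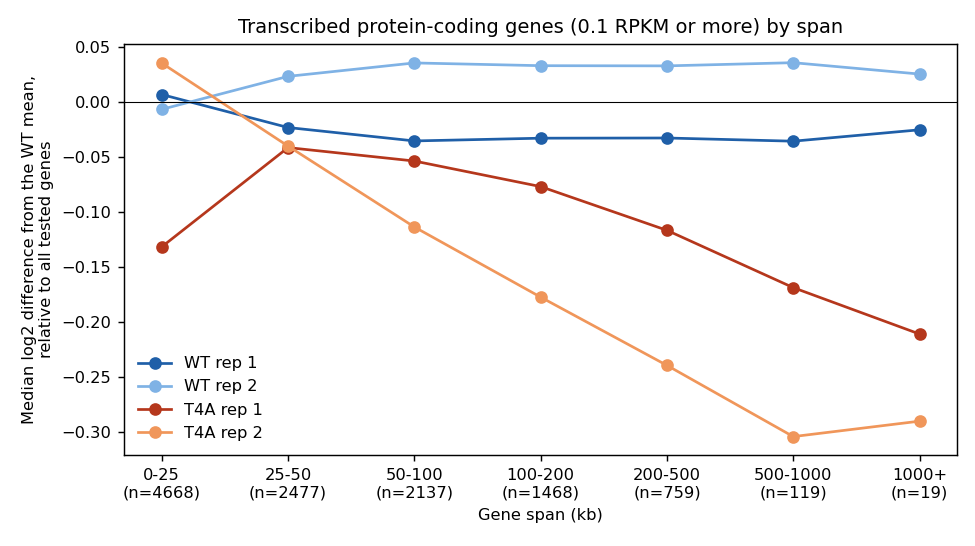
Median log2 difference of each library from the WT mean, relative to all tested genes, for protein-coding genes of 0.1 RPKM or more in 7 classes of span (kb, number of genes below each class). T4A replicate 1 goes from -0.04 at 25 to 50 kb to -0.21 above 1000 kb and T4A replicate 2 from -0.04 to -0.29, and the WT lines stay flat.

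Long genes are also less transcribed and poorer in GC than shorter ones, and both were looked at beside the span. Between 0.1 and 0.2 RPKM the median was -0.05 for genes of 50 to 100 kb, -0.11 for 200 to 500 kb and -0.24 for 49 genes of 500 kb or more. Between 0.5 and 1 RPKM it was -0.14, -0.20 and -0.21, the last over 33 genes. At 1 RPKM or more the 7 long genes had a median of -0.12, equal to that of genes of 200 to 500 kb. Within a GC content of 34% to 37% the medians were -0.07, -0.18 and -0.27 for the same classes of span, and within 42% to 50% they were -0.08, -0.16 and -0.16. Among the transcribed long genes the fold change was higher at a higher GC content (Spearman correlation 0.33 over 138 genes, with the same libraries behind each point). With a trend on GC content removed from each library the median of the transcribed long genes was -0.26.

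The silent genes stood on the other side. Their median log2 fold change was 0.88, with quartiles of 0.62 and 1.11, and it rested on single libraries. Relative to the WT mean, T4A replicate 1 was at 1.30 and T4A replicate 2 at 0.30, while the WT libraries were 0.18 and -0.18 from their mean. Without T4A replicate 1 the median was 0.28, without T4A replicate 2 it was 1.31 and without WT replicate 2 it was 0.64. The lower the density, the higher was the fold change (Spearman correlation -0.56 over 96 genes). Shorter silent protein-coding genes were higher too, so the rise was not particular to long genes. Their median was 0.82 from 200 to 500 kb, where 62 of 142 tested (43.7%) were higher at an unadjusted p under 0.05. It was 0.80 from 100 to 200 kb, 0.68 from 50 to 100 kb and 0.75 from 25 to 50 kb. The pooled density of the olfactory receptor genes is given above. The part of a background of reads that differs between libraries in the calls among silent genes was not tested. The weakly transcribed genes lay between, with a median of -0.05 (quartiles of -0.15 and 0.20).

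The 304 genes were sorted by role into 6 lists that held 264 of them, with 40 left in none. The share of transcribed genes lower at an unadjusted p under 0.05 is given for each list and reads against 48.6% of all 138 transcribed long genes and 8.02% of all genes tested. Genes of cell adhesion and axon guidance were the largest list with 65 genes and the one most often silent: 36 were silent, 10 weak and 19 transcribed. Of the 19, 12 (63.2%) were lower and none was higher at an unadjusted p under 0.05, and their median was -0.30. ERBB4 and LRRC7 were counted in this list, although one is a receptor kinase and the other an intracellular scaffold. PTPRD, a receptor phosphatase gene, was transcribed at 0.115 and 0.115 RPKM in WT and 0.107 and 0.102 RPKM in T4A, without overlap and with a p that missed the threshold. CNTNAP2, a neurexin family member, was weak (0.0163, 0.0163, 0.0207 and 0.0167 RPKM), with both T4A values above both WT values in RPKM but overlapping groups in TMM-normalized counts.

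Genes of channels, receptors and synapses numbered 43, of which 18 were silent, 14 weak and 11 transcribed. Among the 11, 4 (36.4%) were lower and 1, RYR2, was higher, with a median of -0.20. GPHN, which anchors inhibitory receptors, had 0.949 and 1.03 RPKM in WT and 0.895 and 0.865 RPKM in T4A, and ERC1, an active zone scaffold, had 1.17 and 1.20 RPKM in WT and 1.09 and 1.05 RPKM in T4A. Neither gene overlapped between the groups or passed the threshold.

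RNA binding and transcription factor genes numbered 28, of which 17 were transcribed, 6 weak and 5 silent. Among the 17, 9 (52.9%) were lower and 1, RUNX1, was higher, with a median of -0.26. FOXP2 was in this list with its decrease given above. AUTS2, a gene tied to Polycomb complexes, had 0.740 and 0.676 RPKM in WT and 0.653 and 0.621 RPKM in T4A, which did not pass the threshold. RBFOX1, the splicing regulator and longest gene, was silent with 258, 192, 528 and 246 counts.

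Signaling genes numbered 42, and 25 of them were transcribed. Among the 25, 11 (44%) were lower and none was higher, with a median of -0.21. PRKCA, PARD3 and MAST4 were in this list and did not pass the threshold. Cytoskeleton and matrix genes numbered 28, and 12 were transcribed. Among the 12, 6 (50.0%) were lower and none was higher, with a median of -0.30 and with CEP112 as the largest decrease. EYS, a photoreceptor matrix gene, was silent with 198, 134, 447 and 144 counts.

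Genes of metabolism, transport and cell upkeep numbered 58 and were the list most often transcribed, with 36 transcribed, 8 weak and 14 silent. Among the 36, 18 (50.0%) were lower and none was higher, with a median of -0.24. NBEA and FAF1 were in this list. Among the 18 transcribed genes in no list, 7 (38.9%) were lower and none was higher, with a median of -0.14. The transcribed genes of each role list thus had a median below that of all tested genes, with a range of -0.30 to -0.20, against -0.24 for all 138. Over all members, silent ones included, the adhesion list had a median of 0.56 and the channel list one of 0.24.

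Genes over common fragile sites were counted apart from roles. Of 30, 15 were transcribed, 9 weak and 6 silent, and 10 of the 15 (66.7%, against 48.6% of all transcribed long genes and 8.02% of all genes tested) were lower and none was higher, with a median of -0.31. All 30 genes, silent and weak ones included, had a median span of 1337 kb, while some of the 15 were shorter, such as FAF1 at 523 kb. Of the 19 transcribed long genes above 1000 kb, a set that shares genes with this list, 63.2% were lower. The part of span in the share was not tested. FHIT, a diadenosine triphosphate hydrolase gene, had 0.132 and 0.137 RPKM in WT and 0.104 and 0.104 RPKM in T4A, a log2 fold change of -0.42 (SE 0.09). WWOX, an oxidoreductase gene, had 0.241 and 0.227 RPKM in WT and 0.204 and 0.203 RPKM in T4A, a log2 fold change of -0.25 (SE 0.09). MACROD2, an ADP-ribose hydrolase gene, had a log2 fold change of -0.22 (SE 0.09). In each of these 3 genes both T4A libraries stood below both WT libraries, at an unadjusted p under 0.05 in edgeR. WWOX and MACROD2 did not pass it with the replicate block (0.149 and 0.181 in edgeR), without WT replicate 1 (0.132 and 0.149) or without T4A replicate 2 (0.0600 and 0.0763), and MACROD2 did not without T4A replicate 1 (0.0871) or among protein-coding genes alone (0.0576).

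Of the 10 longest genes, only PTPRD and MACROD2 were transcribed. LRP1B, a large lipoprotein receptor gene, was weak at 0.0845 and 0.0904 RPKM in WT and 0.0600 and 0.0610 RPKM in T4A, a log2 fold change of -0.58 (SE 0.09) and the largest decrease of the 10. ROBO2, a Slit receptor gene, was weak at 0.0872 and 0.0897 RPKM in WT and 0.0758 and 0.0784 RPKM in T4A, a log2 fold change of -0.25 (SE 0.09) whose unadjusted edgeR p was 0.105 with the replicate block and 0.0671 without T4A replicate 1. Both groups stood apart in these genes. DLG2, a synaptic scaffold gene, was weak at 0.0164 and 0.0149 RPKM in WT and 0.0202 and 0.0181 RPKM in T4A, above WT in both libraries. CNTNAP2 was weak too, and RBFOX1, CSMD1, EYS and the alpha-catenin gene CTNNA3 were silent. CTNNA3, at 585, 591, 682 and 463 counts, was the highest of these 4 and overlapped between the groups in normalized counts.

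The genes next to the span limit were read too. Just above 500 kb were ANO5 (501 kb), SPOCK3 (501 kb) and KCNAB1 (501 kb), with log2 fold changes of -0.29, 0.69 and 0.40. ANO5, a membrane protein gene of muscle, was transcribed (0.109 and 0.120 RPKM in WT, 0.0953 and 0.0983 RPKM in T4A), SPOCK3 was silent (31, 31, 54 and 28 counts) and KCNAB1 was weak (0.0746 and 0.0837 RPKM in WT, 0.115 and 0.101 RPKM in T4A). Just below it were DIAPH3 (498 kb), ITPR2 (498 kb) and CACNA2D1 (497 kb), all transcribed, with log2 fold changes of -0.07, -0.17 and -0.29.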

How the data were processed

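TT-seq of 4 libraries (2 of 52X WT, 2 of 52X T4A) was measured. The authors deposited raw counts from uniquely aligned reads over whole gene spans. Their notes name FastQC, cutadapt 4.6, STAR 2.7.11b, Picard, deepTools 3.5.6 and GRCh38, and the version and strand setting of the counter are not given in the sources used here. Gene names, types, exonic length and GC content came from a GRCh37 annotation by stable identifier (58742 of 60708 genes matched). Of the long genes, 299 had a RefSeq symbol and all 299 overlapped their GRCh38 position. Coordinates are of GRCh38.

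Counts of all genes were tested with edgeR 4.0.16 in R 4.3.3 (TMM, default filter on low counts, quasi-likelihood test, Benjamini-Hochberg adjustment). TMM factors were 0.967 to 1.04. Differences of single libraries used log2 CPM with a prior count of 2. Alternatives were DESeq2 1.42.0, other scalings, other filters, a block for the replicate number, different limits and each library left out, and some were chosen after seeing the data. Named genes were the 10 longest, the 10 with the highest density, 5 at each end of the genes under 0.1 RPKM, the up to 5 most increased and 5 most decreased transcribed genes at an unadjusted p under 0.05 without overlap, the 3 next to the 500 kb limit on either side, and 10 well-known long genes, of which 1 is not reported here. The members, lists and tests were chosen with earlier results of these data known. Counts carry a counting error that falls with depth: transcribed long genes had a median of 6321 to 9962 counts in each library and silent ones of 72 to 158.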

Additional observations from a re-analysis of the deposited data

How the results depend on the processing

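The edgeR test gave no long gene past an adjusted p of 0.05 with other scalings, with protein-coding genes alone or with at least 10 counts in each library. It gave 18 (all lower) without a filter on low counts, a fit for which the share of all genes called was not worked out. DESeq2 gave 51 (48 lower, 3 higher) of the 202 long genes to which it gave an adjusted p. With the replicate number as a block edgeR gave 32 (9 lower, 23 higher), and 45 were lower at an unadjusted p under 0.05. Over all tested genes the deviations of same-numbered libraries correlated at 0.00498, and the labels do not say that a number marks a shared batch. In the silent genes replicate 1 had the higher median in both groups, and with the block 70 of the 96 tested were higher at an unadjusted p, against 51. Leaving out single libraries gave 0 to 129 adjusted calls (2 without WT replicate 1 and 19 without T4A replicate 1, all lower, and 129 without T4A replicate 2, of which 28 were lower and 101 higher), 49 to 91 lower and 7 to 115 higher at an unadjusted p. The lone library is then assumed to vary like the other group. Moving the span limit to 400 kb gave 243 transcribed genes and 232 tested ones under 0.1 RPKM. Among them 123 were called lower and 91 higher by the same unadjusted threshold. A limit of 750 kb left 49 and 88 such genes, with 33 called lower and 37 higher. The shares among all tested genes were 8.02% lower and 7.45% higher.

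The median of the transcribed genes was negative in every setting run, -0.297 to -0.185 with single libraries left out and -0.322 without a filter. The median of the genes under 0.1 RPKM was 0.54, 0.101 to 0.834 with single libraries left out (lowest without T4A replicate 1) and -0.121 with the olfactory receptor density subtracted, over the 70 genes that this leaves in place of 164. In each library the subtracted density was above the pooled density of the silent genes. The setting thus changed the set of genes, and it cannot show the fold change of silent genes without background. The 68 weakly transcribed genes had a median of -0.05 without subtraction. With a limit of 0.2 RPKM 89 genes were transcribed. The share of counts on genes under 0.1 RPKM differed by 0.0108 percentage points (exact permutation p of 1), -0.00891 to 0.0306 with single libraries left out and -0.0739 with a limit of 0.2 RPKM. That of the transcribed genes differed by -0.494 to -0.322 points with single libraries left out.

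Of 462 values for 42 named genes under the alternatives, 12 turned direction. With single libraries left out, the log2 fold change ran from -0.0451 to 0.31 for CNTNAP2, from -0.0736 to 0.51 for CTNNA3, from -0.0711 to 0.158 for DLC1 (-0.00434 without WT replicate 1), from -0.00371 to 0.182 for KALRN, from -0.363 to 1.12 for UNC13C and from -0.360 to 1.33 for UNC5D, each lowest without T4A replicate 1. It ran from -0.10 to 0.00842 for CREB5 and from -0.106 to 0.0642 for MAST4, highest without T4A replicate 2. With library size alone CREB5 was at 0.00862 and MAST4 at 0.0351, and with protein-coding genes alone MAST4 was at 0.0193. The cause was not tested.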
